A study of Homo sapiens with 4 samples.

Results

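ABI3BP, a gene for a secreted matrix glycoprotein, was followed in hFOB1.19 cells as they went through mineralization. It was chosen by its FPKM, the number of sequenced fragments scaled by transcript length and library size. With 1 added to each FPKM, its ratio to the control was larger than that of any listed matrix gene. It is 1 of 19610 gene symbols in the mRNA table, and its values are the sum over its 21 listed transcripts. Since its rise in these libraries is what singled it out, its levels and ratios are given as a description without a test. The gene ID is ENSG00000154175, and the deposited tables place it at chr3:100749155-100993515, with no build named in them.

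The hFOB1.19 line derives from human fetal osteoblasts and carries a temperature-sensitive T antigen of SV40, so that it divides at a lower culture temperature and slows when warmed. Total RNA was sequenced from 1 control library on day 0, before the shift to the higher temperature, and from 1 library each on days 3, 6 and 9 of mineralization. All 4 libraries came from this 1 line in the same basal medium with serum. Warming and days in culture changed together, and their parts in any difference from day 0 cannot be told apart. With 1 library per time point, no difference has a replicate check, and no p-value or SD could be given.

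ABI3BP encodes the ABI family member 3 binding protein, also known as TARSH or target of Nesh-SH3. It was named for binding to the SH3 domain of ABI3 (Nesh), a relative of the ABI1 and ABI2 adaptors of the WAVE complex, which drives branching of actin filaments. The protein holds fibronectin type III domains and is secreted into the extracellular matrix. In cultured cells it has been linked with growth arrest, senescence and the passage of mesenchymal stem cells from division to differentiation.

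The bases just upstream of ABI3BP are printed to show which sequence lies before the start of a gene that changed this much, beside those of GDF15 and CLCA2, the 2 genes whose pattern over the 4 libraries was nearest to it on the scale used here. All 3 sequences come from RefSeq on build GRCh38.p14 and cover the 250 bases before the start site, read on the gene's own strand. They lie at chr3:100993422-100993671 on the minus strand for ABI3BP, at chr19:18385908-18386157 on the plus strand for GDF15, and at chr1:86423921-86424170 on the plus strand for CLCA2. The deposited location of ABI3BP ends at 100993515, which would fall inside its window if both use the same build. Capitals mark every match, on either strand, to the TATA box (TATAAA), the CCAAT box, the core of RUNX sites (TGTGGT), the AP-1 site (TGANTCA), the E-box (CANNTG) and the core of TEAD sites (GGAATG).
ABI3BP: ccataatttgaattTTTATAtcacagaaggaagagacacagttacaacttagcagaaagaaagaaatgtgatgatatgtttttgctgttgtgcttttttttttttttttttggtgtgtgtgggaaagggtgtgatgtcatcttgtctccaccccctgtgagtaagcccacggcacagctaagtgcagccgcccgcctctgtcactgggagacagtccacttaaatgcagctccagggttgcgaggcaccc
GDF15: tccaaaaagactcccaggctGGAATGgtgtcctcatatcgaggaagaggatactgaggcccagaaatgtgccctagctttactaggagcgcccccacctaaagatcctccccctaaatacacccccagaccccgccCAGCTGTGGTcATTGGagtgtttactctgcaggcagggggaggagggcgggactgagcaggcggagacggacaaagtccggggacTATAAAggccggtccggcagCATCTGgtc
CLCA2: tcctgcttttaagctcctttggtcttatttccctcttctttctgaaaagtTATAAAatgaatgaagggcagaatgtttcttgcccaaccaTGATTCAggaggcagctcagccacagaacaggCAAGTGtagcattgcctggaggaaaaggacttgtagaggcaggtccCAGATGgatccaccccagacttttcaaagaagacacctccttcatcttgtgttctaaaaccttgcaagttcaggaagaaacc

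The ABI3BP window held 1 match, to TATAAA on the opposite strand, starting at base -236 from the start site. A match to TATAAA was present in 10.7% of 35116 promoter windows of this length. GDF15 carried TATAAA at base -29, and CLCA2 carried it at base -200. No match to CANNTG, which 61.8% of windows hold, or to CCAAT, which 32% hold, was found in the ABI3BP window. The letters of the RUNX core, the AP-1 site and the TEAD core, held by 11.0%, 6.57% and 11.9% of windows, had no match there either. In GDF15, the match to the RUNX core overlapped 1 of its 2 E-box matches, and the CCAAT box and the TEAD core had 1 match each. CLCA2 held 1 match to the AP-1 site and 2 to the E-box. G and C made up 45.2% of the ABI3BP window, 58.4% of that of GDF15 and 44.8% of that of CLCA2, against a median of 58% over all windows. A match says only that these letters are in the window.

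The FPKM of ABI3BP was 6.34 in the control library and 294, 646 and 933 in those of days 3, 6 and 9. The control library was far below the other 3, and the level was higher at every later time point than at the one before. In the order of all 19610 symbols by FPKM, ABI3BP moved from rank 9006 in the control to ranks 233, 115 and 80 in the later libraries. Its day 0 level was below the median over the symbols measured, which was 14.2 on day 0 and between 13.4 and 13.5 afterwards. Of the summed FPKM of each library, the gene took 0.00103% in the control, then 0.0546%, 0.118% and 0.164%. In bulk RNA, more cells that express the gene and more RNA of it per cell cannot be told apart.

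On day 9, the symbols next above ABI3BP in FPKM were the ribosomal protein genes RPL24, RPLP0 and RPL32, at 956, 949 and 941. Those next below were RPL30 at 921, TUBA1B, an alpha-tubulin gene, at 893, and ALDOA, a gene of glycolysis, at 869. On day 0 these 6 genes had stood between 727 and 1486, and ABI3BP at 6.34. By day 9, ABI3BP thus stood among ribosomal, cytoskeletal and glycolytic genes in this order.

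Changes are given as the log2 ratio of FPKM + 1, on which the changes of weakly expressed genes appear smaller than they are, and a symbol counted as higher or lower when this ratio was at least 1 or at most -1. Compared were the 12859 symbols that reached 1 FPKM in at least 1 of the libraries. On day 3, ABI3BP was higher than on day 0 by 5.33 on the log2 scale, a 46.4-fold ratio of the FPKM, and 8.13% of all symbols were higher by the same limit. On day 6 the ratio was 6.46 on the log2 scale, or 102-fold, beside 9.01% of symbols higher. On day 9 it was 6.99, or 147-fold, beside 9.6% of symbols higher. The rule used these 3 ratios, so their distance from the rest is part of the choice of the gene. The median log2 ratio over all symbols lay between -0.09 and -0.08 on the 3 days.

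By size of the log2 ratio to day 0, ABI3BP ranked 2, 1 and 2 among the 12859 symbols on the 3 later days. With a pseudocount of 0.1 in place of 1, its rank on day 9 was 8. The symbol ahead of it on day 3 was TENM4, a teneurin gene, whose FPKM of 1.38, 170, 8.12 and 8.45 was high in the day 3 library alone. The symbol ahead on day 9 was AL109927.1, which was listed at 0 on days 0, 3 and 6 and at 425 on day 9. Behind ABI3BP on day 9 came CSF2, the gene of the cytokine GM-CSF, with a log2 ratio of 6.84, CXCL8, a neutrophil chemokine, with 6.82, and SAA1, an acute phase protein, with 6.62. CXCL8 stood at 3.02, 8.82, 89.1 and 452 and SAA1 at 1.12, 9.94, 46.7 and 208, so both gained most of their FPKM between days 6 and 9. The symbols were also ranked by the smallest of their 3 log2 ratios of FPKM + 1 to day 0. ABI3BP came first with 5.33, and INPP5D came next with 4.95. The rule used these ratios, and this order was not repeated with another pseudocount. In plain FPKM gained from day 0 to day 9, 926 for ABI3BP, it ranked 12, behind among others the ferritin heavy chain gene FTH1, which gained 5154, and fibronectin, FN1, which gained 1222.

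The gain was spread over the whole time course. FPKM rose by 288 from day 0 to day 3, by 352 from day 3 to day 6 and by 287 from day 6 to day 9, so that similar amounts were added in each interval. The level on day 3 was 31.5% of that on day 9, and the level on day 6 was 69.2% of it. On the log2 scale the steps after day 3 were smaller, at 1.13 from day 3 to day 6 and 0.53 from day 6 to day 9. The first of these passed the limit, as did 0.607% of all symbols, or 78 in number. The second, a 1.44-fold ratio, stayed within the limit, which 0.381% of symbols passed upward. ABI3BP ranked 65 among all symbols in the step from day 3 to day 6 and 255 in that from day 6 to day 9. An FPKM that was higher at every step was found for 1530 symbols, 11.9% of those compared. Of the 762 symbols higher on all 3 later days, 28 were also at least 2-fold higher on day 6 than on day 3, ABI3BP among them.

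Most of the listed ABI3BP transcripts took part in the rise. Of the 21, 3 were at 0 in every library, 10 were above 0 in every library and 8 were at 0 on day 0 and above 0 on a later day. Past the limit on all 3 later days were 13, and none was lower past the limit on any day. An increase at every step was also seen in 13. The gene was chosen for the rise of the sum of these transcripts, so the counts follow in part from that choice. The matching shares over all 79798 transcripts are not given here. Few symbols list so many transcripts: those compared have a median of 4, and 0.638% of them have at least 21. FPKM of overlapping transcripts rest on an assignment of shared reads between them, so the split between transcripts is less certain than their sum.

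The transcript highest on day 9, ENST00000284322, stood at an FPKM of 1.61, 73.0, 166 and 232 on days 0, 3, 6 and 9. It held a nearly constant share of the gene's FPKM, between 24.8% and 25.7% in the 4 libraries. ENST00000497395 stood at 0.565, 80.4, 165 and 229, close to the first on days 6 and 9 and below it on day 0. Its share went from 8.92% on day 0 to 27.4% on day 3 and was 24.5% on day 9. ENST00000527258 stood at 0.841, 34.0, 87.6 and 148, and its share was 13.3% on day 0 and 15.9% on day 9.

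ENST00000483129 stood at 1.39, 40.0, 78.9 and 124, and its share fell from 22.0% on day 0 to 13.3% on day 9. These 4 transcripts held 69.6% of the gene's FPKM on day 0 and between 77.0% and 78.5% afterwards. The shares on day 0 rest on transcripts that were each under 2 FPKM. Over the 10 transcripts above 0 throughout, the day 9 to day 0 ratio of FPKM ran from 31-fold to 404-fold, with a median of 97.7-fold. The smallest was that of ENST00000478235, whose log2 ratio of FPKM + 1 was 0.95 on day 3 and 2.08 on day 9. Of the transcripts at 0 on day 0, ENST00000486770 reached 21.0 on day 9 and ENST00000466947 reached 18.8. ENST00000530539 was highest on day 6, at 12.8, and stood at 9.81 on day 9. ENST00000482765 was above 0 only on day 6, at 0.669, and ENST00000495591 only on day 9, at 0.0927.

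**Figure D1:**
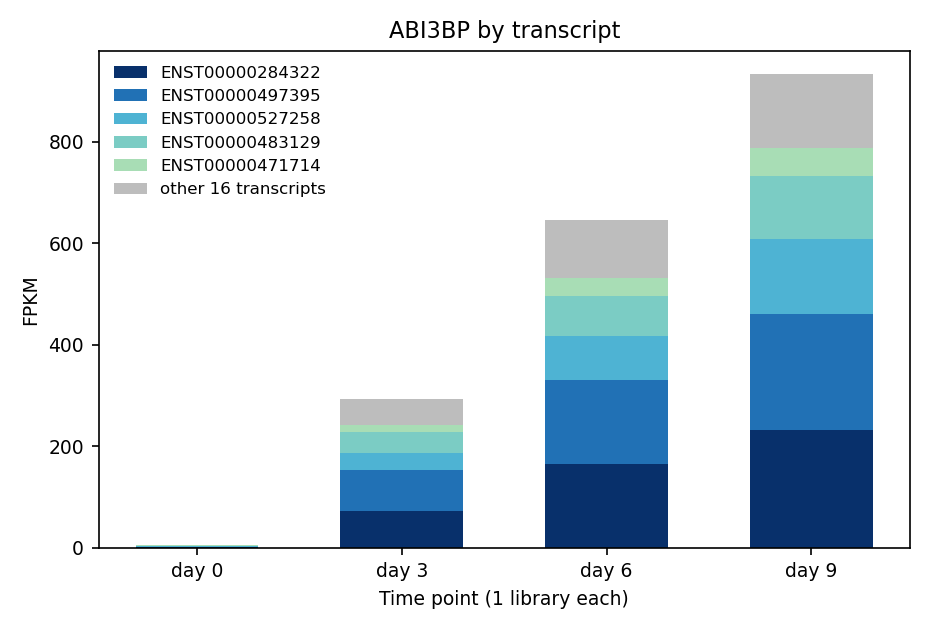
FPKM of ABI3BP on days 0, 3, 6 and 9 (1 library each), stacked by transcript for the 5 transcripts highest on day 9 and the other 16 together. The total goes from 6.34 to 933, and ENST00000284322 holds between 24.8% and 25.7% of it in every library.

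The matrix around ABI3BP was described with lists of matrix glycoproteins, collagens and proteoglycans, which hold 210 genes besides it. Of these, 129 reached the minimum of 1 FPKM and 10 were at 0 in every library. On days 3, 6 and 9, 52, 53 and 54 of them were higher than in the control, and 4, 6 and 4 were lower. This is 40.3%, 41.1% and 41.9% of them higher, beside the 8.13%, 9.01% and 9.6% of all symbols. Of all symbols, 5.3%, 6.42% and 6.52% were lower on these days. The median log2 ratio of the 129 was 0.71, 0.81 and 0.74 on the 3 days. Higher on all 3 days were 39 of the 129, and 30 had a higher FPKM at every step. Among the 12859 symbols compared, 762 were higher on all 3 days, and 11.9% had a higher FPKM at every step. With 1 added to each FPKM, the largest log2 ratio of any of the 129 on day 9 was 4.73, against 6.99 for ABI3BP. On this scale none exceeded ABI3BP on day 3 or day 6.

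By FPKM, ABI3BP held rank 67 among these matrix genes in the control and ranks 18, 6 and 5 later. Of the matrix FPKM with its own included, it made up 0.0653% in the control and 1.61%, 3.52% and 5.18% on the later days. The 4 genes above it on day 9 were already abundant on day 0. FN1, which cells bind through integrins, stood at 831, 1920, 2014 and 2053. SPARC, a collagen-binding glycoprotein of bone, stood at 1113, 1469, 1351 and 1275. COL1A1, a chain of type I collagen, stood at 777, 1974, 1587 and 1146.

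IGFBP7, a secreted binding protein of insulin-like growth factors, stood at 385, 927, 941 and 998, just above ABI3BP on day 9. In these 4 the day 0 library held between 38.5% and 87.3% of the day 9 level, while in ABI3BP it held 0.679%. COL1A1 and SPARC were highest on day 3 and ABI3BP on day 9. The plot of matrix levels shows ABI3BP going from the middle of the group to near its top.

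**Figure D2:**
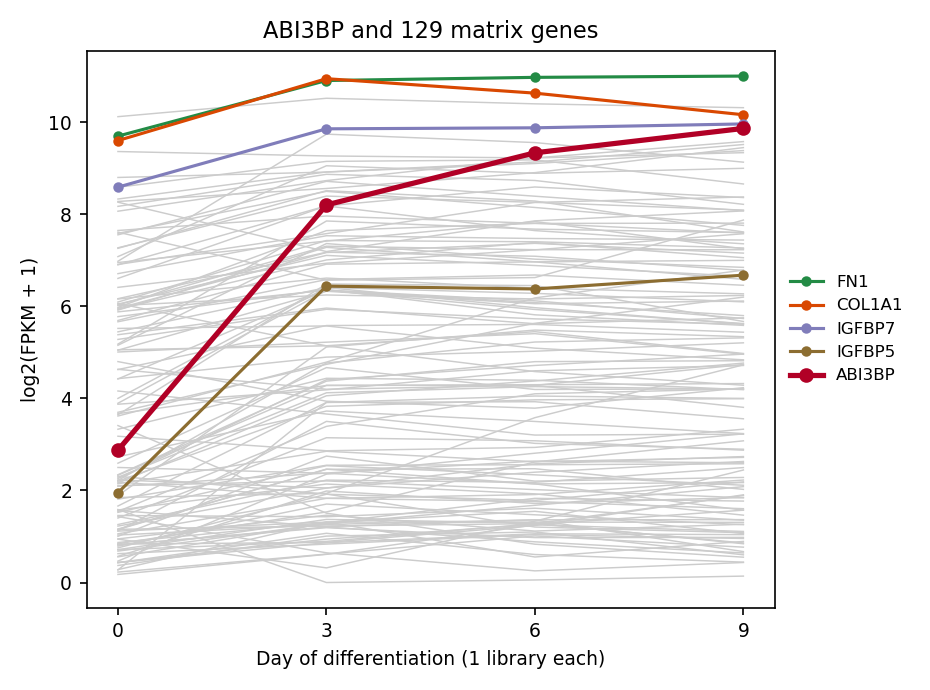
log2(FPKM + 1) on days 0, 3, 6 and 9 (1 library each) for ABI3BP, 4 named matrix genes and the rest of the 129 matrix genes in grey. ABI3BP starts at 2.88 and reaches 9.87, while FN1, COL1A1 and IGFBP7 start high.

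Among the matrix glycoproteins, the largest rises on day 9 after ABI3BP were those of IGFBP5, SMOC1, IGFBP2, LAMB3 and SRPX. IGFBP5, a binding protein of insulin-like growth factors found in bone matrix, stood at an FPKM of 2.86, 85.8, 82.2 and 101, and its log2 ratio on day 9 was 4.73. SMOC1, a modular calcium-binding protein of basement membranes, stood at 0.208, 14.1, 15.6 and 15.0. IGFBP2 stood at 2.70, 33.7, 43.8 and 39.5. On the log2 scale these 3 had gained nearly all of their day 9 change by day 3. From day 3 to day 9 their log2 ratios were 0.24 for IGFBP5, 0.09 for SMOC1 and 0.22 for IGFBP2, against 1.66 for ABI3BP.

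LAMB3, the laminin beta 3 chain, stood at 11.3, 26.6, 71.7 and 110, so that its level, like that of ABI3BP, was higher at every step. SRPX stood at 3.65, 26.3, 36.4 and 38.8, with a log2 ratio of 3.10 on day 9. The 3 lowest ratios belonged to TNC, TNXB and CRISPLD1. TNC, the matrix protein tenascin C, stood at 65.8, 34.3, 23.0 and 18.5, a log2 ratio of -1.78 on day 9. CRISPLD1 stood at 1.70 on day 0 and 0.352 on day 9, a ratio of -0.998 that stayed just within the limit.

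Of 27 collagen genes compared, 14, 12 and 11 were higher on the 3 later days, where 8.13%, 9.01% and 9.6% of all symbols were, and 1 was lower on each. COL3A1, the chain of the fibrillar type III collagen, stood at 35.3, 231, 204 and 193. COL1A2, the other chain of type I collagen, stood at 125, 856, 753 and 561. COL7A1, the collagen of anchoring fibrils, stood at 11.5, 88.7, 86.6 and 49.98. All of them were highest on day 3.

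COL27A1 and COL4A6 came next, with log2 ratios of 1.90 and 1.77 on day 9. The gene that was lower, COL5A3, a chain of type V collagen, stood at 9.63, 1.84, 0.781 and 0.465. COL12A1 and COL18A1 followed it in the order, at -0.19 and -0.05, within the limit. No collagen passed the limit upward after day 3, and the median log2 ratio of the 27 was -0.18 from day 3 to day 6 and -0.33 from day 6 to day 9. ABI3BP, at 1.13 and 0.53, was above all 27 in both steps. Its FPKM as a share of that of the 44 listed collagens with its own went from 0.252% on day 0 to 18.7% on day 9.

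Of 18 proteoglycan genes compared, 7 were higher on day 3 and 9 each on days 6 and 9. The shares of all symbols higher were 8.13%, 9.01% and 9.6%. On each day 1 was lower, a share near the 5.3% to 6.52% of all symbols. ESM1, a secreted dermatan sulfate proteoglycan, stood at 2.60, 2.83, 11.0 and 25.5, with its rise after day 3. VCAN, the large proteoglycan versican, stood at 3.48, 15.7, 19.8 and 26.2. DCN, decorin, which binds collagen fibrils, stood at 4.07, 19.8, 26.8 and 27.2. All of these were below ABI3BP in FPKM, by a small distance on day 0 and by a wide one on the later days.

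LUM, lumican, had a log2 ratio of 1.62 on day 9, and SRGN, serglycin, had one of 1.51. SRGN stood at 267, 425, 598 and 765, above ABI3BP on days 0 and 3 and below it on days 6 and 9. PRG2 stood at 2.002 on day 0 and 0.101 on day 9 and was the 1 gene lower. CHAD, at -0.17, and ASPN, at 0.13, were the next in the order and within the limit.

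From day 3 to day 9, the log2 ratio of ABI3BP was 1.66, a 3.17-fold ratio of FPKM, and the median of the 129 matrix genes was -0.13. Only ESM1, MFAP5 and LAMB3 had a higher ratio over these 6 days, and on day 9 their FPKM were 25.5, 4.44 and 110. From day 3 to day 6, 4 of the 129 passed the limit upward, ESM1, LAMB3, SPP1 and MFAP5, and 2 of them exceeded ABI3BP. The 4 are 3.10% of the 129, beside 0.607% of all symbols. From day 6 to day 9, 3 passed it, or 2.33%, beside 0.381% of all symbols, and 8 had a larger ratio than ABI3BP. The first of those 8, IGFBP3, stood at 195, 93.9, 97.8 and 234, so that its late rise followed a lower level on days 3 and 6. SPP1, which encodes osteopontin, stood at 0.794, 1.89, 5.14 and 7.45. MFAP5, SPP1 and IGFBP3 were chosen for mention after their values were seen.

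**Figure D3:**
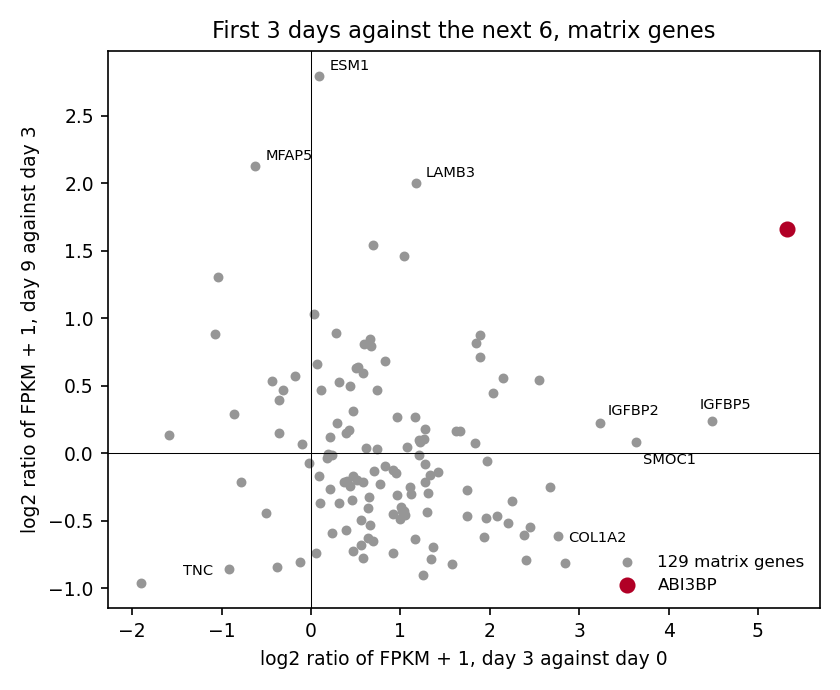
log2 ratio of FPKM + 1 from day 0 to day 3 (horizontal axis) and from day 3 to day 9 (vertical axis) for 129 matrix genes (grey points) and ABI3BP (red point), from 1 library per day. ABI3BP lies at 5.33 and 1.66, apart from the genes that rose early, such as IGFBP5, and from those that rose late, such as ESM1.

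Fibronectin type III domains, which ABI3BP carries, are also found in 13 listed matrix genes, of which 7 were compared. On day 9, COL7A1, ANOS1 and FN1 were higher, with log2 ratios of 2.03, 1.51 and 1.305. TNXB and TNC were lower, with -1.22 and -1.78. On that day 9.6% of all symbols were higher and 6.52% were lower. ANOS1, which encodes anosmin 1, stood at 1.34, 3.15, 4.97 and 5.67. TNXB, tenascin X, stood at 3.95, 2.79, 1.31 and 1.12. COL12A1, at -0.19, and VWA1, at -0.93, were within the limit.

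The 7 genes thus moved in both directions, and their median log2 ratio was 0.59, 0.04 and -0.19 on days 3, 6 and 9. ABI3BP was 0.648% of the FPKM of this list with its own on day 0 and 30.0% on day 9, second to FN1. Of the 6 genes not compared, TNN was at 0 in every library and the other members were under 1.

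Of the ABI genes, ABI3 was lower on day 9, and ABI1 and ABI2 stayed within the limit. ABI3 itself stood at an FPKM of 10.3, 6.07, 4.46 and 3.69, lower at each later time point than at the one before. Its log2 ratio was -0.68 on day 3, within the limit, and -1.05 and -1.27 on days 6 and 9, past it. Under the 3 rescalings of the libraries tried, the day 6 ratio of ABI3 lay between -0.97 and -0.78, within the limit, and the day 9 ratio between -1.19 and -1.02, past it. On day 0 the FPKM of ABI3 was above that of ABI3BP, and on day 9 it was far below. ABI1 stood at 25.9, 19.0, 19.8 and 22.7, and ABI2 at 37.1, 38.6, 38.4 and 38.1, with log2 ratios between -0.42 and 0.06.

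Of the 11 listed genes of the ABI family and the WAVE complex, 10 were compared, and 1 was higher on each later day, a share near the 8.13% to 9.6% of all symbols. That gene was CYFIP2, whose product binds WAVE proteins and RAC1, at 4.34, 70.2, 76.9 and 81.2, with a log2 ratio of 3.94 on day 9. Nearly all of its rise had taken place by day 3. Its paralog CYFIP1 stood at 41.3, 30.9, 38.5 and 36.0. The WAVE genes WASF1, WASF2 and WASF3 had log2 ratios of -0.50, -0.08 and 0.00 on day 9, and NCKAP1 and BRK1, further subunits, had -0.30 and 0.12. NCKAP1L, the blood-cell form of NCKAP1, stayed under 0.1 FPKM.

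**Figure D4:**
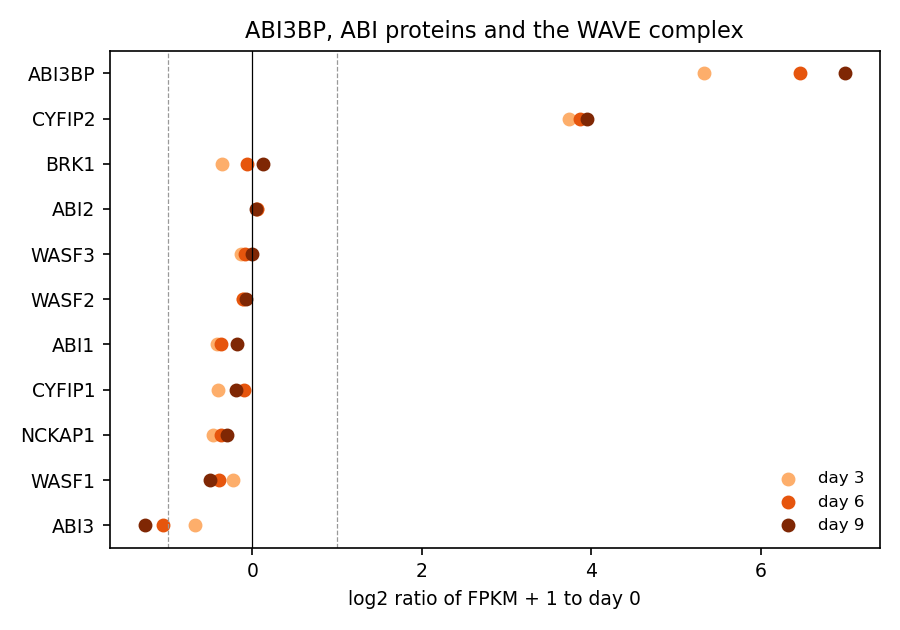
log2 ratio of FPKM + 1 to day 0 (horizontal axis) on days 3, 6 and 9 (1 library each) for ABI3BP and 10 genes of the ABI family and the WAVE complex, with dashed lines at the limits of -1 and 1. ABI3BP and CYFIP2 lie far to the right, ABI3 lies at -1.27 on day 9, and the other genes stay between the lines.

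Genes of growth arrest and senescence were set beside ABI3BP because of its link with both. Of the 17 listed, all were compared. Among those higher on all 3 later days were GDF15, CDKN1A and MDM2, and lower on all 3 were CCNA2 and CCNB1. In all, 6, 4 and 4 were higher on days 3, 6 and 9, while 3, 3 and 7 were lower. Of all symbols, 8.13%, 9.01% and 9.6% were higher on these days and 5.3%, 6.42% and 6.52% lower. CDKN1A, the cell cycle inhibitor p21, stood at 74.7, 1524, 1391 and 1283, and was highest on day 3.

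MDM2, a target and regulator of p53, stood at 154, 787, 467 and 359. GDF15, a stress-induced cytokine of the TGF-beta family, stood at 11.4, 360, 578 and 767. CCNB1 and CCNA2, cyclins of the later phases of the cell cycle, went the other way, from 225 to 32.4 and from 102 to 36.9 between day 0 and day 9. Their level was reached by day 3, whereas ABI3BP went on rising.

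With 1 added to each FPKM, GDF15 was the gene with the pattern most like that of ABI3BP among the 12859 compared. Likeness was measured as the root mean square difference of the 3 log2 ratios to day 0, and it was 0.839 for GDF15. CLCA2, a membrane protein related to calcium-activated chloride channel regulators, came next with 1.15 and stood at an FPKM of 0.211, 22.9, 45.2 and 65.6. CCND2, cyclin D2, followed with 1.36 and stood at 0.267, 17.7, 44.1 and 63.9.

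INPP5D, an inositol phosphatase, had a difference of 1.46 and stood at 1.15, 67.1, 68.1 and 65.4, level after day 3. CSF2 had a difference of 1.57 and stood at 0.137, 7.13, 45.6 and 130, with its rise mostly late. GDF15, CLCA2, CCND2 and CSF2 thus had a higher FPKM at every step, as ABI3BP did, and INPP5D did not. The order depends on the scale. With the distance taken over log2 levels, 1 of these 5, GDF15, was again among the nearest, and with a pseudocount of 0.1 CCND2 came first, CLCA2 was next and GDF15 was in place 4. The measure rests on 3 ratios that share the control library.

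**Figure D5:**
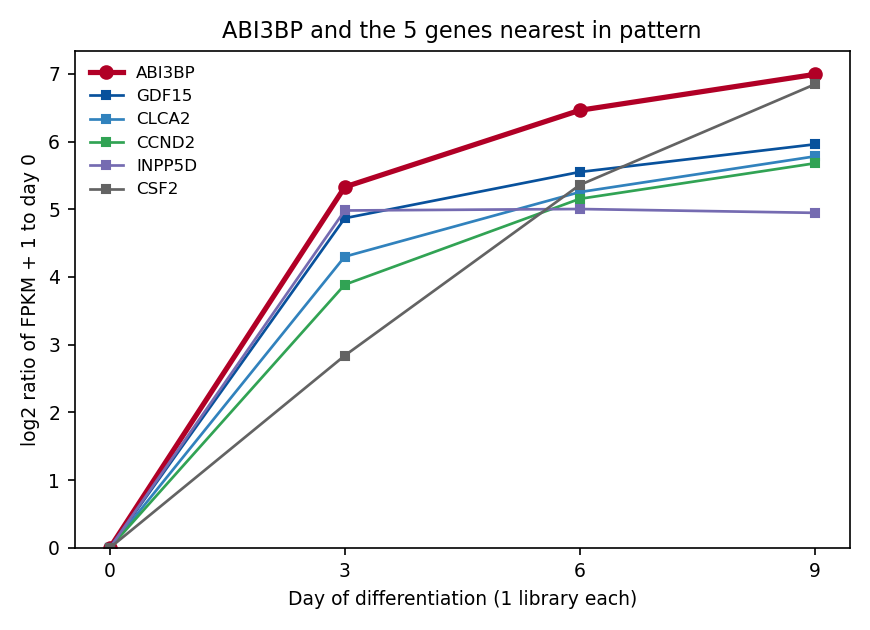
log2 ratio of FPKM + 1 to day 0 over the days of differentiation (1 library each) for ABI3BP and the 5 genes nearest to it in pattern. ABI3BP is the highest line on all 3 later days. Closest below it is INPP5D on day 3, GDF15 on day 6 and CSF2 on day 9.

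The genes next to ABI3BP on the chromosome were looked at for their own changes. In the RefSeq order for assembly GRCh38.p14, used here for names only, the 5 genes on one side are TFG, ADGRG7, TMEM45A, LNP1 and TOMM70, and the 5 on the other are IMPG2, SENP7, TRMT10C, PCNP and ZBTB11. ADGRG7 and IMPG2 were under 1 FPKM in every library. Of the other 8, TMEM45A, which encodes a transmembrane protein, was the only one past the limit, a share near that of all symbols, of which 8.13% to 9.6% were higher.

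TMEM45A stood at 4.81, 13.5, 13.5 and 12.1, with log2 ratios of 1.32, 1.32 and 1.17. TFG, next to ABI3BP, stood at 83.6, 74.9, 74.2 and 70.4, all within the limit. The other 6 had day 9 log2 ratios between -0.95, for TRMT10C, and 0.38, for ZBTB11 and PCNP.

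The line was checked against its label. Of 16 osteoblast markers, 9 reached 1 FPKM, not a larger share than the 12859 of all 19610 symbols that did. Among the 9 on day 9 were SPARC at 1275, COL1A1 at 1146, COL1A2 at 561 and RUNX2, a master regulator of osteoblasts, at 18.2. ALPL, the mineralization enzyme alkaline phosphatase, stood at 0.294, 4.32, 4.35 and 4.18. SPP1 stood at 0.794, 1.89, 5.14 and 7.45. The markers BGLAP (osteocalcin), IBSP, SP7, DMP1, PHEX and SOST and the growth factor BMP2 stayed under 1 FPKM in every library. The label is thus borne by the collagen matrix genes and RUNX2, while RNA of BGLAP, SP7 and the others named with them stayed under 1 FPKM.

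Of 19 markers of other cell types, 3 reached 1 FPKM, beside 12859 of all 19610 symbols. The FPKM of all 19 summed to 22.3, 46.8, 73.4 and 98.9 in the libraries of days 0, 3, 6 and 9. Most of it was CD68, a lysosomal protein common in macrophages, at 16.2, 37.5, 65.1 and 90.6, which rose along with ABI3BP. SOX9, a cartilage transcription factor, stood between 1.21 and 5.32, and CD14 between 0.398 and 1.07. PTPRC, the leukocyte marker CD45, stayed under 0.5, ADIPOQ was at 0 in every library, and KRT5 was above 0 on day 3 alone. The part of other cells in the level of ABI3BP was not tested.

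Library-wide values moved far less than ABI3BP. The FPKM summed to between 538072 and 617857 per library, and the control was highest. The 14 reference genes had median log2 ratios of -0.31, -0.34 and -0.23 on days 3, 6 and 9. ACTB was lower past the limit on all 3 days, and on day 3, at -0.96, within it when scaled to these genes. Scaled to these genes, the log2 ratio of ABI3BP on day 9 was 7.25 in place of 6.99. This scaling moved the median log2 ratio of all symbols from -0.08 to 0.24 on day 3, from -0.08 to 0.19 on day 6 and from -0.09 to 0.17 on day 9.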

How the data were processed

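Total RNA of 4 hFOB1.19 libraries, 1 per time point, was depleted of ribosomal RNA and sequenced. The extraction text describes RNase R for the mRNA libraries and not for the circRNA libraries. RNase R digests linear RNA, so if it was used as described, the FPKM are of RNA that remained after it, and whether it was is not clear from the sources used here. The authors deposited FPKM per transcript, and the program behind the FPKM is not given in the sources used here. The submitters' processing notes name Bowtie 0.12.2 and the mouse build mm8, although the transcript IDs are human. FPKM of 79798 transcripts were summed per symbol, and 17 of 19610 symbols cover more than 1 gene ID. The FPKM give no read count for a gene with many transcripts, so that depth sets no interval here.

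Ratios are log2 of FPKM + 1, with a limit of 1 in either direction and a minimum of 1 FPKM in any library. The rule was run on simulated data with changes well past the limit, made in genes above the day 0 level of ABI3BP. Smaller changes and changes in weaker genes were not tried. ABI3BP and the lists were chosen with earlier results of these data known. Named genes were the largest rises (5) and falls (3) of each matrix list, all members compared of the fibronectin III and ABI lists, the 3 symbols above and below in order (fewer where the order ends), the 5 nearest in pattern, 5 chromosome neighbours per side, the growth arrest genes past the limit on all 3 days, and the 5 highest markers. Some genes under this rule are not reported here. The authors' 9 comparison tables hold fold changes and p-values. They and their 18 columns of sample values were not used, except for the gene's location. The circRNA IDs carry no gene names. Alternatives covered the pseudocount, minimum, limit, rescaling and transcript level. Python 3.11.15, numpy 2.4.6, pandas 2.3.3 and matplotlib 3.10.9 were used.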

Additional observations from a re-analysis of the deposited data

How the results depend on the processing

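No paired analysis was possible because a time point holds a single library, and no replicate could be left out. The 30 alternatives for the 5 log2 ratios of ABI3BP kept the direction and the side of the limit. For the ratios to day 0 this outcome was all but fixed, since the rule used them and they lay far past the limit. The step from day 3 to day 6 was nearer to it and lay between 1.03 and 1.13 in the alternatives. A pseudocount of 10 moved the ratios to day 0 by over 1.5-fold, to 4.22 on day 3, 5.33 on day 6 and 5.85 on day 9, since it adds more than the day 0 level itself. By log2 ratio on day 9, ABI3BP ranked 8 with a pseudocount of 0.1 and 1 with one of 10. By FPKM on day 9, its highest transcript ranked 264 among transcripts. Of the 5 genes nearest in pattern, 1 was kept with levels in place of ratios and 3 with a pseudocount of 0.1.

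The alternatives for the matrix counts were added after the data were seen. With a limit of 2, 15, 15 and 16 matrix genes were higher on days 3, 6 and 9, and 0, 1 and 1 were lower. With a minimum of 10 FPKM, 2, 2 and 1 were lower. On day 3, 2 were lower with the same median per library or scaled to the reference genes, and on day 9, 7 were lower with a pseudocount of 0.1. Over all symbols, the numbers higher on day 9 were 772 with a minimum of 10 and 301 with a limit of 2, in place of 1234. From day 3 to day 6, 180 were higher with a pseudocount of 0.1, in place of 78. Of 117 alternatives in all, 76 stayed within 1.5 times the main value. Those 76 include the counts over all symbols with no minimum, which could not differ from the main ones. With 1 added, a symbol under 1 FPKM in every library cannot reach the limit. On day 0 the transcripts of ABI3BP were each under 2 FPKM, and the precision of such low values is not known without counts. Of the genes named in the text, ABI3 and TNXB on day 6 and ACTB, ANOS1, IGFBP3 and SRGN on day 3 changed their side of the limit under at least 1 of the 3 rescalings.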
